A study of Mus musculus with 48 samples.

Results

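The metallothionein genes Mt1 and Mt2, the metal-sensing transcription factor gene Mtf1, the zinc exporter gene Slc30a1 and the zinc importer gene Slc39a10 were examined in cultured mouse kidney slices. These 5 genes were taken by symbol from the 55487 genes of the count table, and all 5 passed the filter on low counts in every comparison. Bulk RNA-seq with a stranded mRNA kit was carried out on slices kept outside the body, taken from male mice of C57BL/6J and of DBA/2J, from which the BXD inbred panel was bred. Each strain gave 3 libraries in each of 8 conditions, which makes 16 groups and 48 libraries. The conditions were an untreated control, tunicamycin and cyclosporin A, each at 6 h and at 24 h, and 2 oxygen conditions of 24 h. The latter were normoxia, which the labels call an ischemia model, and normoxia-hyperoxia, which they call a reperfusion model. No group carried an engineered allele. The sources used here give no drug dose, no age of the mice, no oxygen level for the control slices and no time of the switch in oxygen, and the labels number the replicates as biological without saying whether they came from separate mice. The p-values therefore measure the spread between these libraries. The titles place the controls in the drug experiment, so the oxygen conditions were compared with controls from another arm of the study.

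Metallothioneins are small cysteine-rich proteins that bind zinc and copper, and they are abundant in kidney, where they also bind cadmium. When free zinc rises, the protein encoded by Mtf1 binds metal response elements and switches on Mt1, Mt2 and Slc30a1. The Slc30 family moves zinc out of the cytosol, Slc30a1 doing so at the plasma membrane, while the Slc39 family, to which Slc39a10 belongs, brings zinc into it.

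Mt1 (ENSMUSG00000031765, chr8:94179082-94180327, plus strand) and Mt2 (ENSMUSG00000031762, chr8:94172664-94173568, plus strand) are neighbours on GRCm38. Slc30a1 (ENSMUSG00000037434, chr1:191906767-191913247, plus strand) and Slc39a10 (ENSMUSG00000025986, chr1:46807544-46892852, minus strand) both lie on chromosome 1, and Mtf1 (ENSMUSG00000028890, chr4:124802104-124849800, plus strand) lies on chromosome 4. Apart from overlapping antisense genes and a short stretch of Slc39a10, no run of 50 bases in the annotated transcripts of the 5 genes occurred in those of another gene, so Mt1 and Mt2 share no read of that length. The antisense genes are Gm45774 for Mt2, the protein-coding 1110065P20Rik for Mtf1 and 1700034H15Rik for Slc30a1, which reached at most 41, 475 and 62 counts in any library. They share 45.8%, 7.55% and 8.01% of the 50-base runs of Mt2, Mtf1 and Slc30a1, in that order. The strand setting of the counting is not given in the sources used here, so reads of these pairs may not have been told apart. The promoters of the 3 genes known as Mtf1 targets are shown because their levels moved apart from each other in the oxygen conditions. Each runs from 250 bases before to 50 bases after the RefSeq start site on GRCm38.p6, at chr8:94178839-94179138 for Mt1, chr8:94172368-94172667 for Mt2 and chr1:191906531-191906830 for Slc30a1, all on the plus strand. Capitals mark matches on either strand to the metal response element cores TGCACNC and TGCGCNC.
Mt1: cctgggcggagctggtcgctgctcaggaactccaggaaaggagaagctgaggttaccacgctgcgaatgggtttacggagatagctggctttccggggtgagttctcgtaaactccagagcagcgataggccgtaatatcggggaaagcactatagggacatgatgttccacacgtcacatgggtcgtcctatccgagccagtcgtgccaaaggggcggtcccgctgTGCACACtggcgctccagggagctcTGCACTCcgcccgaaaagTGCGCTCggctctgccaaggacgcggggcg
Mt2: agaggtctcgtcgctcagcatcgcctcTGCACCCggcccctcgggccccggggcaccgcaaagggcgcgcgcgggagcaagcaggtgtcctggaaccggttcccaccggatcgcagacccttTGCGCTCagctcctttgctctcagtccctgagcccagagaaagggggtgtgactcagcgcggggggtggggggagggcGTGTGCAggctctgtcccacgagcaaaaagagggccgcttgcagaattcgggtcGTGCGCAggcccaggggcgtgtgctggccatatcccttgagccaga
Slc30a1: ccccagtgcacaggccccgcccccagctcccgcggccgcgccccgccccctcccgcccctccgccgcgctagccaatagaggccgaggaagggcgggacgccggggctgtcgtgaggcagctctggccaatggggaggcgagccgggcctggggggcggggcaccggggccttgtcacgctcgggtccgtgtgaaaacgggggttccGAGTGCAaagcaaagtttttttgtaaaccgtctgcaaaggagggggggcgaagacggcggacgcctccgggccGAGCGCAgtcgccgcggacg
The window held 3 matches in Mt1, 4 in Mt2 and 2 in Slc30a1, and none in Mtf1 or at either RefSeq start of Slc39a10. The RefSeq starts differ from the gene ends given above, so the counts hold for these windows only. The Slc39a10 windows, chr1:46853569-46853868 and chr1:46925727-46926026, leave out its upstream end at 46892852. The Mt2 window ends at 94172667, just past the gene start at 94172664. Among 32851 RefSeq mouse promoters of the same length, 7.11% held at least 2 matches, 1.97% at least 3 and 0.517% at least 4. A match is a description of these letters, not evidence of binding.

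Library totals ranged from 5619309 to 25137581 counts, and the shallowest library, replicate 2 of DBA/2J normoxia-hyperoxia, lay well under the next at 12384733. Levels are given as normalised CPM, the counts of a gene scaled to a common library size with trimmed mean of M-values (TMM) factors over all libraries. The markers of the kidney cell types were detected in all groups. Of 2 adrenal cortex markers, Cyp11b1 was at 0 in most groups. The other, Star, averaged 18.5 to 22.7 normalised CPM in the C57BL/6J 24 h control and drug groups, 3.45 to 3.73 in those of DBA/2J, and 1.18 and 1.46 under normoxia. The summed liver markers Alb and Apoa1 stayed at or under 7.87 normalised CPM. The composition of the RNA moved with the conditions. The summed level of 5 proximal tubule markers (Lrp2, Cubn, Slc34a1, Slc5a2, Slc22a6) averaged 3801 normalised CPM in C57BL/6J and 5676 in DBA/2J 6 h controls, 428 and 1226 in 24 h controls, 6079 and 12468 under normoxia, and 155 and 628 under normoxia-hyperoxia. The marker of the distal convoluted tubule averaged 3640 and 3413 in the same strains at 6 h, 661 and 1255 at 24 h, 2772 and 1760 under normoxia, and 5230 and 6043 under normoxia-hyperoxia. Mitochondrial transcripts took 15.4% and 8.16% of the counts in 6 h controls of the same strains, 6.82% and 3.52% in 24 h controls, 23.9% and 12.3% under normoxia, and 14.1% and 13.7% under normoxia-hyperoxia. In bulk RNA, fewer cells of a type and less RNA per cell cannot be told apart. The part of these shifts in the results below was not tested, beyond a fit without mitochondrial genes.

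The largest change among the 5 genes was the fall of both metallothioneins under normoxia. Mt1 stood at 787.4, 639.0 and 813.9 in the C57BL/6J 24 h controls and at 87.1, 83.6 and 94.4 under normoxia. In DBA/2J it stood at 526.7, 639.9 and 581.8 in the controls and at 70.7, 59.5 and 59.6 under normoxia. Every normoxia library lay far below every control library of either time and strain. Mt2 fell from 623.8, 502.7 and 579.0 to 32.8, 26.5 and 35.1 in C57BL/6J. In DBA/2J it fell from 443.8, 536.3 and 468.1 to 20.2, 16.1 and 17.3. The lowest Mt2 group was thus DBA/2J under normoxia, and no normoxia library overlapped any library of another condition.

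Over both strains, Mt1 fell 8.57-fold under normoxia against the 24 h control (log2 fold change -3.10 ± 0.08 SE, adjusted p = 2.2e-14) in edgeR's quasi-likelihood test with Benjamini-Hochberg adjustment over all genes tested. Mt2 fell 21.4-fold (-4.42 ± 0.10, adjusted p = 2.9e-15 in the same edgeR test). Mtf1 fell 2.34-fold (-1.23 ± 0.06, adjusted p = 1.0e-11, edgeR), and the relation of this fall to those of Mt1 and Mt2 was not tested. The 6 normoxia libraries of Mtf1 lay between 21.3 and 23.7 normalised CPM, and the 6 control libraries between 50.5 and 58.8. Hence 3 of the 5 genes were lower and 0 were higher, in a comparison in which 39.7% of all 17375 genes tested were lower and 42.4% were higher. Slc30a1 and Slc39a10 did not pass the test over both strains, at 0.04 ± 0.06 (adjusted p = 0.59, edgeR) and -0.06 ± 0.07 (adjusted p = 0.48, edgeR). With total counts as the only scaling, which moved the median log2 change of all genes from 0.05 to -0.22, both passed as lower, at -0.24 for Slc30a1 and -0.33 for Slc39a10.

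**Figure D1:**
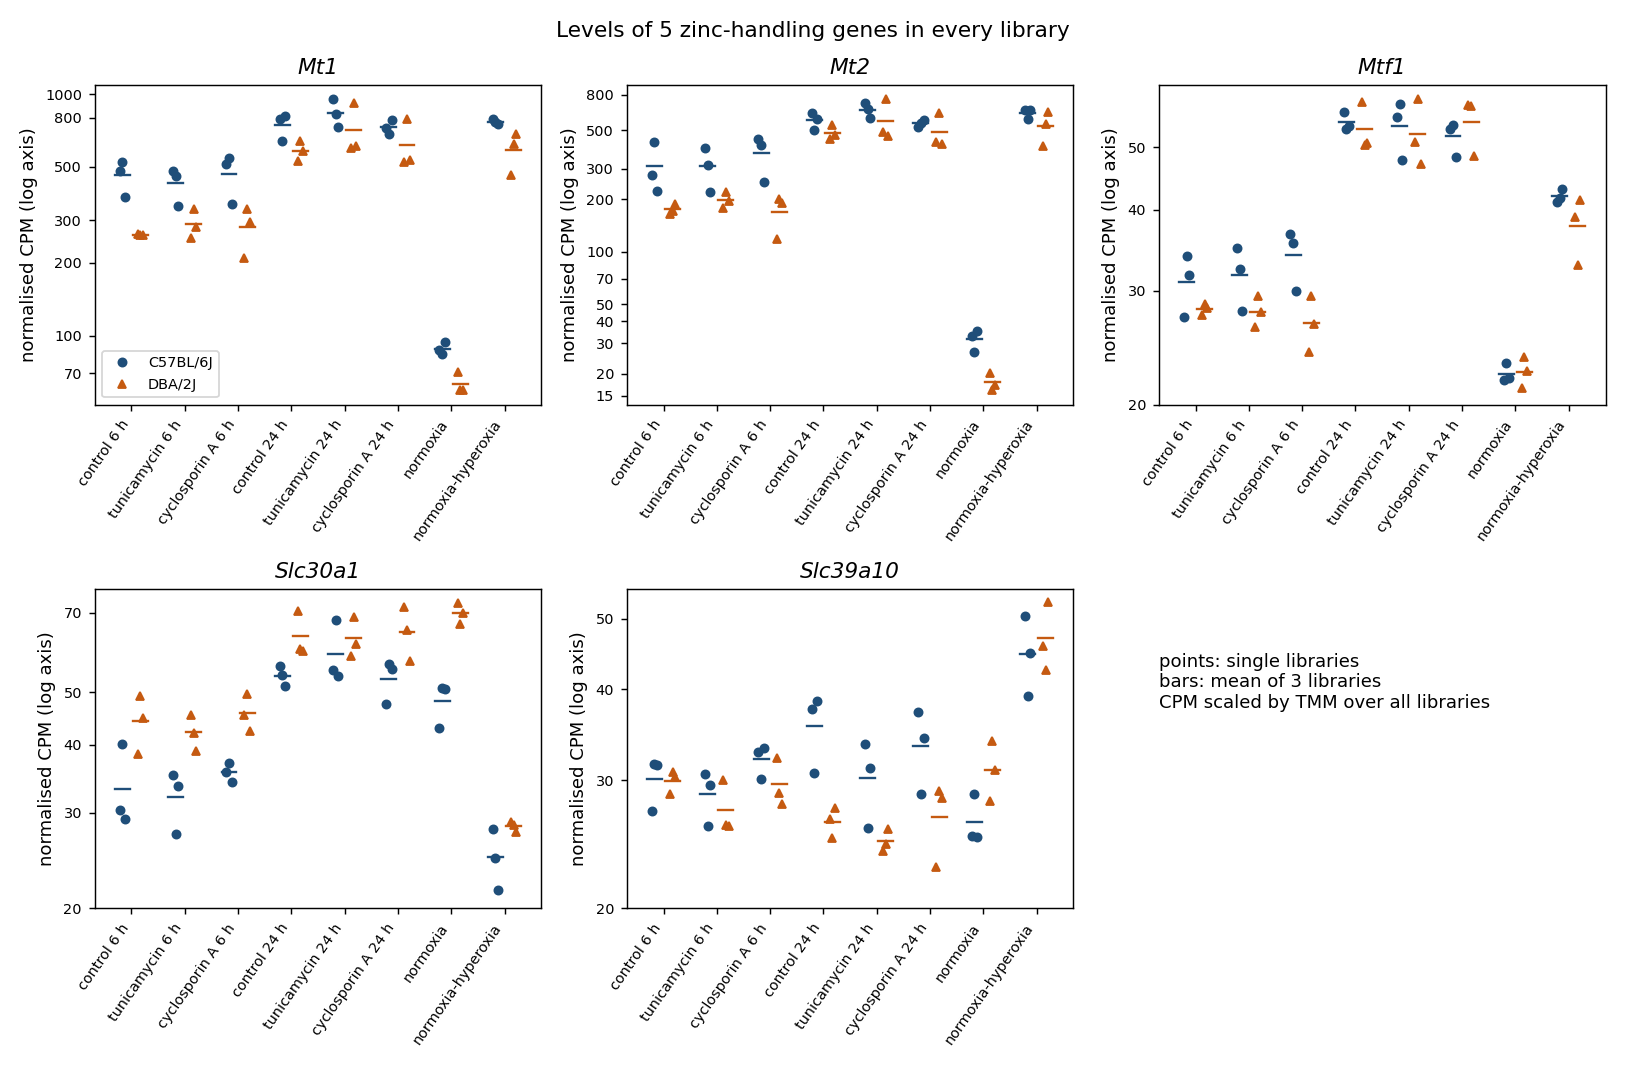
Normalised CPM of the 5 genes on log axes, with 1 point per library, C57BL/6J as circles, DBA/2J as triangles and bars at the mean of 3 libraries. Mt1 and Mt2 were lowest under normoxia, at 59.5 to 94.4 and 16.1 to 35.1, while Slc30a1 was lowest and Slc39a10 highest under normoxia-hyperoxia.

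The direction for the metallothioneins did not rest on the 24 h control. Against the 6 h control, Mt1 was 4.71-fold lower under normoxia (-2.24 ± 0.09, adjusted p = 2.1e-11, edgeR) and Mt2 9.98-fold lower (-3.32 ± 0.15, adjusted p = 1.1e-09, edgeR). Mtf1 was 1.34-fold lower in the same comparison (-0.42 ± 0.07, adjusted p = 7.2e-05, edgeR). Slc30a1, in contrast, was 1.49-fold higher than at 6 h (0.58 ± 0.09, adjusted p = 4.2e-05, edgeR), and Slc39a10 did not pass (-0.09 ± 0.07, adjusted p = 0.27, edgeR). These 3 lower genes and 1 higher gene stood against 32.9% lower and 32.9% higher among all 16819 genes tested. Proximal tubule markers were higher under normoxia than in either control, 5 of 5 against 24 h and 4 of 5 against 6 h. Of 6 markers of the thick ascending limb, distal convoluted tubule and collecting duct, 6 were higher than at 24 h, while 2 were higher and 2 lower than at 6 h. Of 8 markers of podocytes, endothelium, stroma and immune cells, 3 were higher and 3 lower than at 24 h, and 2 were higher and 6 lower than at 6 h. The part of these markers in the differences was not tested.

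The metallothionein genes did not fall by the same factor. The ratio of Mt1 to Mt2 counts, which does not depend on scaling between libraries, was 1.08 to 1.77 in the 42 libraries outside normoxia. Under normoxia it was 2.66 to 3.16 in C57BL/6J and 3.45 to 3.69 in DBA/2J. Both ranges lay above all others, and the DBA/2J range lay above that of C57BL/6J. Together the 2 genes took 0.0111% ± 0.00092 (SD, n = 3) of all counts in C57BL/6J and 0.00754% ± 0.00060 (SD, n = 3) in DBA/2J under normoxia. The same share was 0.142% ± 0.017 and 0.118% ± 0.012 (SD, n = 3) in the 24 h controls. The fall of Mt2 was numerically greater in DBA/2J (-4.67 ± 0.14) than in C57BL/6J (-4.17 ± 0.14). The difference between the strains, DBA/2J minus C57BL/6J, was -0.50 ± 0.17 and missed the threshold (adjusted p = 0.059, edgeR), although it passed in 10 of 19 alternative settings. For Mt1 the strains' changes were -3.08 ± 0.12 and -3.12 ± 0.12, with a difference of -0.05 ± 0.16 (adjusted p = 0.88, edgeR).

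**Figure D2:**
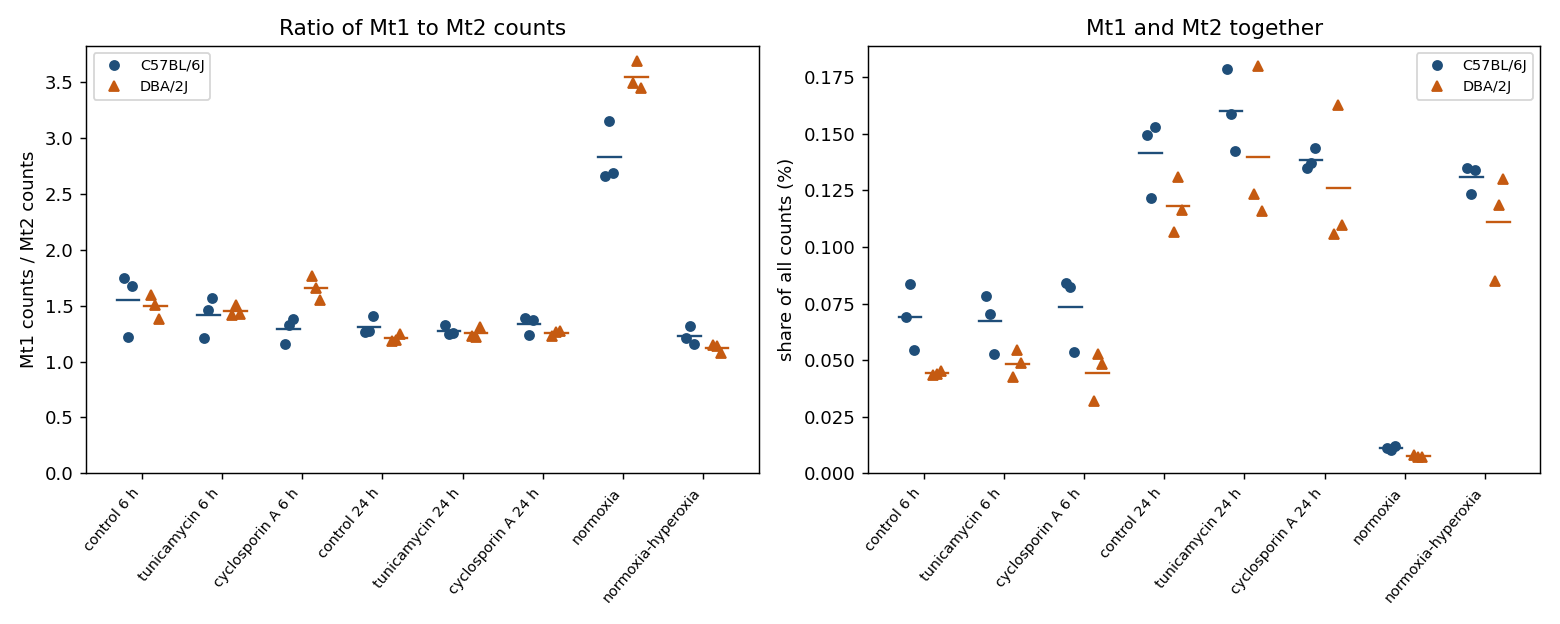
Left, Mt1 counts divided by Mt2 counts in each library; right, the share of all counts in percent taken by both genes, with bars at the mean of 3 libraries. The 6 normoxia libraries stood apart in both plots, with ratios of 2.66 to 3.69 against 1.08 to 1.77 elsewhere and a share of at most 0.012%.

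Under normoxia-hyperoxia the metallothioneins stood at the level of the 24 h controls, while the zinc transporters did not. Mt1 reached 787.7, 763.2 and 755.1 normalised CPM in C57BL/6J and 463.6, 620.8 and 681.1 in DBA/2J, which overlapped the 24 h controls in both strains. Its log2 change against that control was 0.02 ± 0.09 (adjusted p = 0.86, edgeR), and that of Mt2 was 0.13 ± 0.10 (adjusted p = 0.27, edgeR). Both estimates changed sign with total counts as the only scaling, to -0.15 and -0.04, without passing the test. Mt2 passed as higher in 1 of 19 alternative settings, at 0.21 (adjusted p = 0.036, edgeR) without replicate 1 of DBA/2J normoxia-hyperoxia. Mtf1 was 1.36-fold lower than in the control (-0.44 ± 0.06, adjusted p = 2.2e-05, edgeR).

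Slc30a1, which carries zinc out across the plasma membrane, had its lowest levels under normoxia-hyperoxia. It stood at 28.1, 24.8 and 21.6 normalised CPM in C57BL/6J and at 28.9, 28.5 and 27.7 in DBA/2J, against 51.4 to 55.7 and 59.5 to 70.4 in the 24 h controls. None of these libraries reached the controls, and the change was 2.21-fold lower (-1.14 ± 0.07, adjusted p = 2.9e-09, edgeR). Slc39a10, which brings zinc into the cell, moved the other way, to 50.4, 39.2 and 44.8 in C57BL/6J and 45.9, 42.5 and 52.8 in DBA/2J. The controls held 30.7 to 38.6 and 25.0 to 27.5, so the libraries did not overlap within either strain, and the rise was 1.5-fold (0.58 ± 0.08, adjusted p = 1.8e-05, edgeR). Thus 1 gene was higher and 2 were lower, where 34.1% of all 17256 genes tested were higher and 34.1% were lower. The proximal tubule markers were lower than in the 24 h control (5 of 5), while the 6 markers of the other tubule segments were higher (6 of 6, by 1.74 to 4.00), as were 6 of 8 markers of podocytes, endothelium, stroma and immune cells. Their part was not tested. Without the shallow DBA/2J library the same 3 genes passed, with -1.14 for Slc30a1, 0.61 for Slc39a10 and -0.40 for Mtf1.

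Set directly against normoxia, normoxia-hyperoxia changed all 5 genes. Mt2 was 23.7-fold higher (4.56 ± 0.12, adjusted p = 3.8e-13, edgeR) and Mt1 8.79-fold higher (3.14 ± 0.10, adjusted p = 4.9e-13, edgeR). Mtf1 rose 1.74-fold (0.80 ± 0.06, adjusted p = 1.4e-08, edgeR) and Slc39a10 1.57-fold (0.66 ± 0.08, adjusted p = 1.7e-06, edgeR). Slc30a1 fell 2.24-fold (-1.16 ± 0.07, adjusted p = 6.7e-10, edgeR). Of all 17228 genes tested, 37% were higher and 36.5% lower. This comparison shares its libraries with those above, so it adds the size of the difference and no further replication. The proximal tubule markers fell in it, all 5 by between 4.36 and 5.26 on the log2 scale, while 3 of 6 markers of the other tubule segments and 7 of 8 of podocytes, endothelium, stroma and immune cells were higher and 0 lower.

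**Figure D3:**
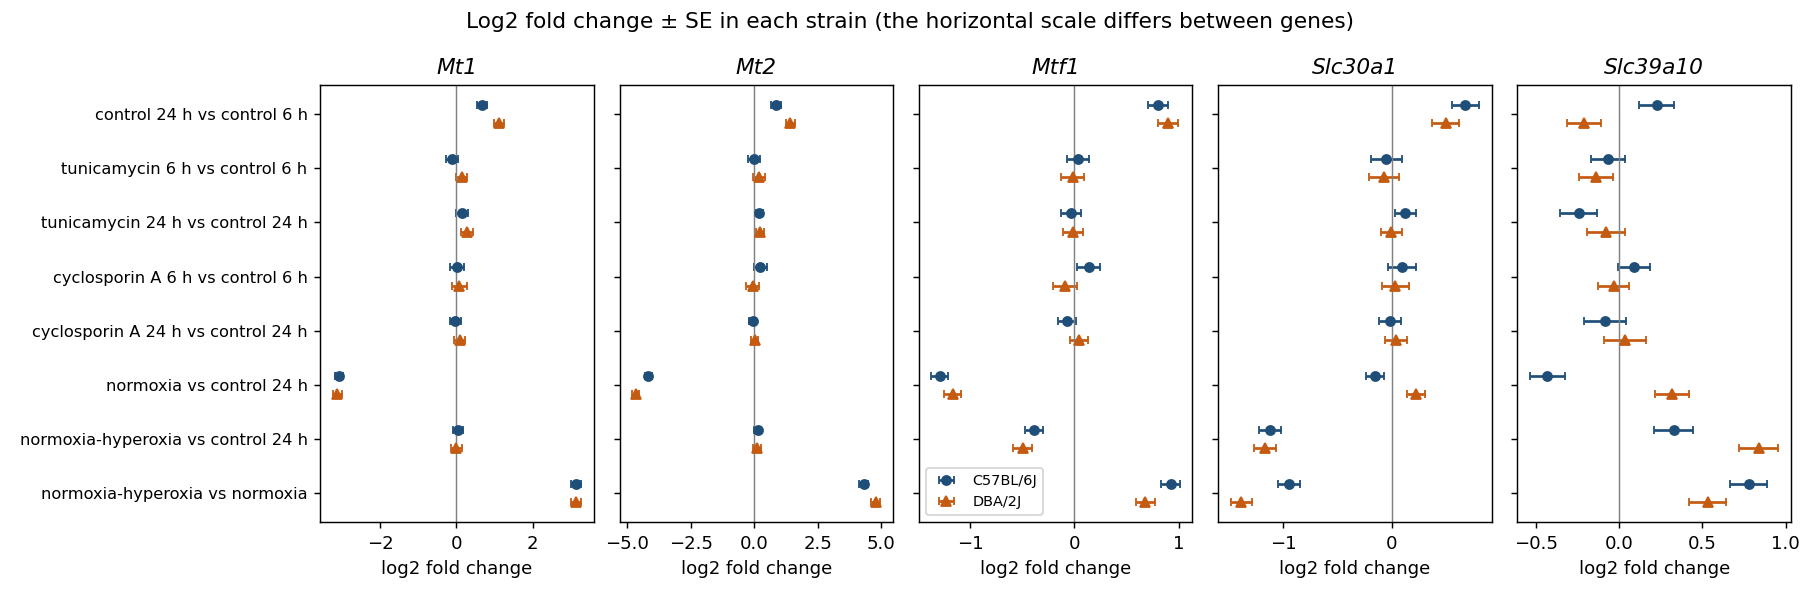
Log2 fold change ± SE (horizontal axis) of each gene in each strain for 8 comparisons, C57BL/6J as circles and DBA/2J as triangles. Both strains gave falls of more than 3 for Mt1 and more than 4 for Mt2 under normoxia, while Slc39a10 had opposite signs in the strains, at -0.43 and 0.32.

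The difference of Slc39a10 between normoxia and the 24 h control was unlike in the strains. In C57BL/6J it stood at 37.6, 30.7 and 38.6 normalised CPM in the 24 h controls and at 25.2, 28.7 and 25.1 under normoxia, a fall without overlap (-0.43 ± 0.10, adjusted p = 0.0014, edgeR). In DBA/2J it stood at 26.6, 25.0 and 27.5 in the controls and at 28.1, 34 and 31 under normoxia (0.32 ± 0.10, adjusted p = 0.012, edgeR). The difference between the strains was 0.75 ± 0.15 (adjusted p = 0.0033, edgeR) and passed in all 19 alternative settings, each of which kept the 24 h control. Against the 6 h control it did not pass, at 0.27 ± 0.14 (adjusted p = 0.32, edgeR), with -0.23 in C57BL/6J and 0.04 in DBA/2J. The direction within DBA/2J was less firm, since it was -0.01 (adjusted p = 0.94, edgeR) with total counts only and 0.23 (adjusted p = 0.051, edgeR) without mitochondrial genes. In the controls themselves, Slc39a10 was lower in DBA/2J at 24 h (-0.43 ± 0.11, adjusted p = 0.0041, edgeR) and not detectably different at 6 h (-0.01 ± 0.11, adjusted p = 0.97, edgeR).

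Slc30a1 also passed the test of a strain difference under normoxia, at 0.38 ± 0.12 (adjusted p = 0.040, edgeR), with -0.15 ± 0.08 in C57BL/6J and 0.22 ± 0.08 in DBA/2J. That call was lost in 16 of 19 alternative settings, where adjusted p reached 0.31, while the estimate stayed between 0.22 and 0.42. The call was lost on leaving out any of 10 of the 12 libraries, the exceptions being replicates 2 and 3 of C57BL/6J normoxia. The change in DBA/2J became -0.11 with total counts only. Between normoxia-hyperoxia and normoxia, Slc30a1 differed between strains by -0.44 ± 0.14 (adjusted p = 0.041, edgeR), a call lost in 17 of 19 settings, with estimates of -0.50 to -0.27. Against the 6 h control the strain difference of Slc30a1 under normoxia did not pass either, at 0.15 (adjusted p = 0.70, edgeR). The 2 genes called for the normoxia difference compare with 17% of all genes, and the 1 gene called between the oxygen conditions with 18.2%. For normoxia-hyperoxia against the control 0 of the 5 were called, with 1.43% of all genes. The Slc39a10 estimate there was 0.51 ± 0.17 (adjusted p = 0.15, edgeR), and with the replicate number as a block it passed at 0.50 ± 0.13 (adjusted p = 0.047, edgeR).

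Time in culture raised most of the genes. Mt2 rose 2.22-fold from the 6 h to the 24 h control (1.15 ± 0.13, adjusted p = 3.7e-06, edgeR) and Mt1 1.87-fold (0.91 ± 0.09, adjusted p = 4.4e-07, edgeR). Mt1 went from 482.5, 524.5 and 375.5 to 787.4, 639.0 and 813.9 in C57BL/6J, and from 264.0, 260.1 and 261.2 to 526.7, 639.9 and 581.8 in DBA/2J, without overlap in either strain. Mtf1 rose 1.81-fold (0.85 ± 0.07, adjusted p = 3.7e-08, edgeR) and Slc30a1 1.5-fold (0.59 ± 0.09, adjusted p = 2.6e-05, edgeR). Slc39a10 did not pass (0.01 ± 0.07, adjusted p = 0.93, edgeR), its estimates being 0.23 ± 0.10 for C57BL/6J and -0.21 ± 0.10 for DBA/2J. Scaling by total counts alone, which moved the median of all genes from -0.02 to 0.19, placed Slc39a10 among the genes that passed as higher, at 0.22. In all, 4 genes were higher and 0 lower, with 34.7% of all 16962 genes tested higher and 37.4% lower. All 5 proximal tubule markers, the 6 markers of the other tubule segments and 7 of the 8 of podocytes, endothelium, stroma and immune cells were lower at 24 h, and their part was not tested. No member passed the test of a strain difference (0 of 5; 0.69% of all genes did), and Slc39a10 came nearest at -0.44 ± 0.15 (adjusted p = 0.21, edgeR).

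Neither drug produced a detectable change in any of the 5 genes. Tunicamycin blocks N-linked glycosylation and burdens the endoplasmic reticulum, and cyclosporin A is a calcineurin inhibitor used as an immunosuppressant. After tunicamycin for 24 h, Mt1 was 0.22 ± 0.11 higher on the log2 scale (adjusted p = 0.45, edgeR), Mt2 0.22 ± 0.11 (adjusted p = 0.46, edgeR) and Slc39a10 -0.16 ± 0.08 (adjusted p = 0.42, edgeR). The C57BL/6J Mt1 levels of 950.3, 825.5 and 733.2 overlapped the control values. The DBA/2J levels of 598.7, 915.9 and 607.0 did so too, with replicate 2 well above the others. These 0 of 5 calls stood against 1.38% of all 16905 genes tested.

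After tunicamycin for 6 h, and cyclosporin A for 6 h and for 24 h, 0 of the 5 genes and 0.0% of all genes passed edgeR's test. At an unadjusted p under 0.05, edgeR gave 281, 734 and 1107 of 16551, 16538 and 16887 genes tested in these 3 comparisons. With no change at all, a share of 0.05 of the genes would be reached. The counts for both drugs at 6 h lay below that share, and the count for cyclosporin A at 24 h lay above it. DESeq2's adjusted test called 0, 51 and 22 genes. The members' log2 changes in them ranged from -0.10 ± 0.07 for Slc39a10 after tunicamycin to 0.09 ± 0.19 for Mt2 after cyclosporin A, both at 6 h. The 6 h C57BL/6J controls of Mt2 spread from 223.7 to 428.8 normalised CPM.

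Averaged over all conditions the strains differed in the level of each gene, with DBA/2J lower for the metallothioneins and higher for the exporter. Over the 8 conditions, Mt1 was 1.39-fold lower in DBA/2J (-0.48 ± 0.06, adjusted p = 3.0e-08, edgeR) and Mt2 1.44-fold lower (-0.53 ± 0.08, adjusted p = 5.0e-07, edgeR). Both had lower DBA/2J means in 8 of 8 conditions, by 0.24 to 0.82 for Mt1 and by 0.16 to 1.11 for Mt2 on the log2 scale. Slc30a1 was 1.24-fold higher in DBA/2J (0.31 ± 0.04, adjusted p = 1.7e-08, edgeR) and higher in 8 of 8 conditions, by 0.09 to 0.54. The single-condition differences at 6 h in the controls were -0.82 ± 0.18 for Mt1 (adjusted p = 0.00081, edgeR) and 0.41 ± 0.12 for Slc30a1 (adjusted p = 0.0079, edgeR). At 24 h in the controls neither passed, at -0.36 ± 0.18 for Mt1 (adjusted p = 0.16, edgeR) and 0.24 ± 0.11 for Slc30a1 (adjusted p = 0.14, edgeR). Mt2 passed at 6 h (-0.82 ± 0.23, adjusted p = 0.0069, edgeR) and not at 24 h (-0.24 ± 0.22, adjusted p = 0.51, edgeR). Mtf1 (-0.10 ± 0.04, adjusted p = 0.013, edgeR) and Slc39a10 (-0.12 ± 0.04, adjusted p = 0.011, edgeR) passed with small differences that were lost with total counts only and without the filter on low counts. Each of these genes was lower in DBA/2J in 6 conditions and higher in 2, with differences of -0.35 to 0.08 for Mtf1 and -0.43 to 0.24 for Slc39a10. That makes 1 gene higher and 4 lower in DBA/2J, next to 33% higher and 31% lower among all 18719 genes tested. DBA/2J also had more proximal tubule marker RNA (5 of 5 markers higher, by 0.99 to 1.79), while 1 of the 6 markers of the other segments was higher and 4 lower. Of the 8 markers of podocytes, endothelium, stroma and immune cells, 1 was higher and 4 lower in DBA/2J, and their part was not tested.

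The order of the conditions was similar in the strains for the metallothioneins. For both genes normoxia was lowest, the 3 conditions of 6 h came next with overlapping libraries, and the 3 conditions of 24 h with normoxia-hyperoxia stood highest, also overlapping each other. Gaps without overlap separated these 3 levels in both strains. Mtf1 followed the same steps, except that normoxia-hyperoxia, at 42 ± 0.99 in C57BL/6J and 37.8 ± 4.4 in DBA/2J (SD, n = 3), formed a level of its own between the 6 h and 24 h conditions. Slc30a1 began with normoxia-hyperoxia as the lowest, overlapping the 6 h conditions in C57BL/6J only. Under normoxia, C57BL/6J stood at 48.2 ± 4.5 (SD, n = 3), the lowest mean of the levels above the 6 h conditions, below its 24 h controls and overlapping cyclosporin A at 24 h. DBA/2J stood at 69.9 ± 3.1 (SD, n = 3), the highest mean in that strain, overlapping the other 24 h conditions. Slc39a10 had a single gap in each strain, between normoxia-hyperoxia and all other conditions.

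Over the 16 group means of log2 CPM, Mt1 and Mt2 had a Pearson r of 0.995, Mt1 and Mtf1 0.864, Mt1 and Slc30a1 -0.19, and Slc30a1 and Slc39a10 -0.63. These values describe groups that share controls and scaling, and no test was made. Among 12301 genes, those with the highest r to Mt1 after Mt2 were Ets1 (0.990), which encodes a transcription factor, and Sdcbp (0.990). For Mt2 they were Sertad2 (0.996), Mt1 and Csf1 (0.993), the last encoding a macrophage growth factor. For Mtf1 they were Ddx10 (0.994), Dcp1a (0.993) and Crkl (0.992). For Slc30a1 they were Mydgf (0.979), Lamtor1 (0.977) and Tsku (0.973), and for Slc39a10 Pola2 (0.901), Zfp710 (0.893) and Slfn8 (0.876).

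The other zinc genes were followed in a list of 24, made up of the remaining Slc30 and Slc39 transporters with Mt3 and Mt4, of which 18 to 20 passed the filter in any comparison. Under normoxia 9 of 19 tested were higher and 10 lower than in the 24 h control, next to 42.4% and 39.7% of all genes tested, with a median log2 change of -0.44 against 0.05 for all genes. Higher were the importers Slc39a5 (3.63 ± 0.28) and Slc39a8 (3.60 ± 0.18), the latter also a carrier of manganese and cadmium, and the vesicular transporter gene Slc30a2 (3.11 ± 0.16). Lower were Slc39a6 (-2.71 ± 0.08), Slc39a2 (-2.61 ± 0.32) and Slc30a4 (-0.89 ± 0.07). The value for Slc39a2 averaged unlike strains, at -4.78 ± 0.46 in DBA/2J (adjusted p = 1.3e-07, edgeR) and -0.43 ± 0.41 in C57BL/6J (adjusted p = 0.35, edgeR), with a difference of -4.35 ± 0.64 (adjusted p = 0.00046, edgeR). Its levels went from 6.14 ± 2.7 to 0.20 ± 0.10 normalised CPM in DBA/2J and from 1.38 ± 0.42 to 1.03 ± 0.43 in C57BL/6J (SD, n = 3), where the libraries overlapped. Slc39a8 stood at 2.05 ± 0.14 and 5.96 ± 1.5 normalised CPM in the C57BL/6J and DBA/2J 24 h controls and at 37.3 ± 12 and 45.5 ± 3.2 under normoxia (SD, n = 3). Slc39a6 fell from 55.7 ± 4.3 and 60.3 ± 8.7 to 10.1 ± 0.12 and 7.32 ± 0.78 (SD, n = 3). The rise of Slc39a5, Slc39a8 and Slc30a2 went with that of the proximal tubule markers, and their relation was not tested.

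**Figure D4:**
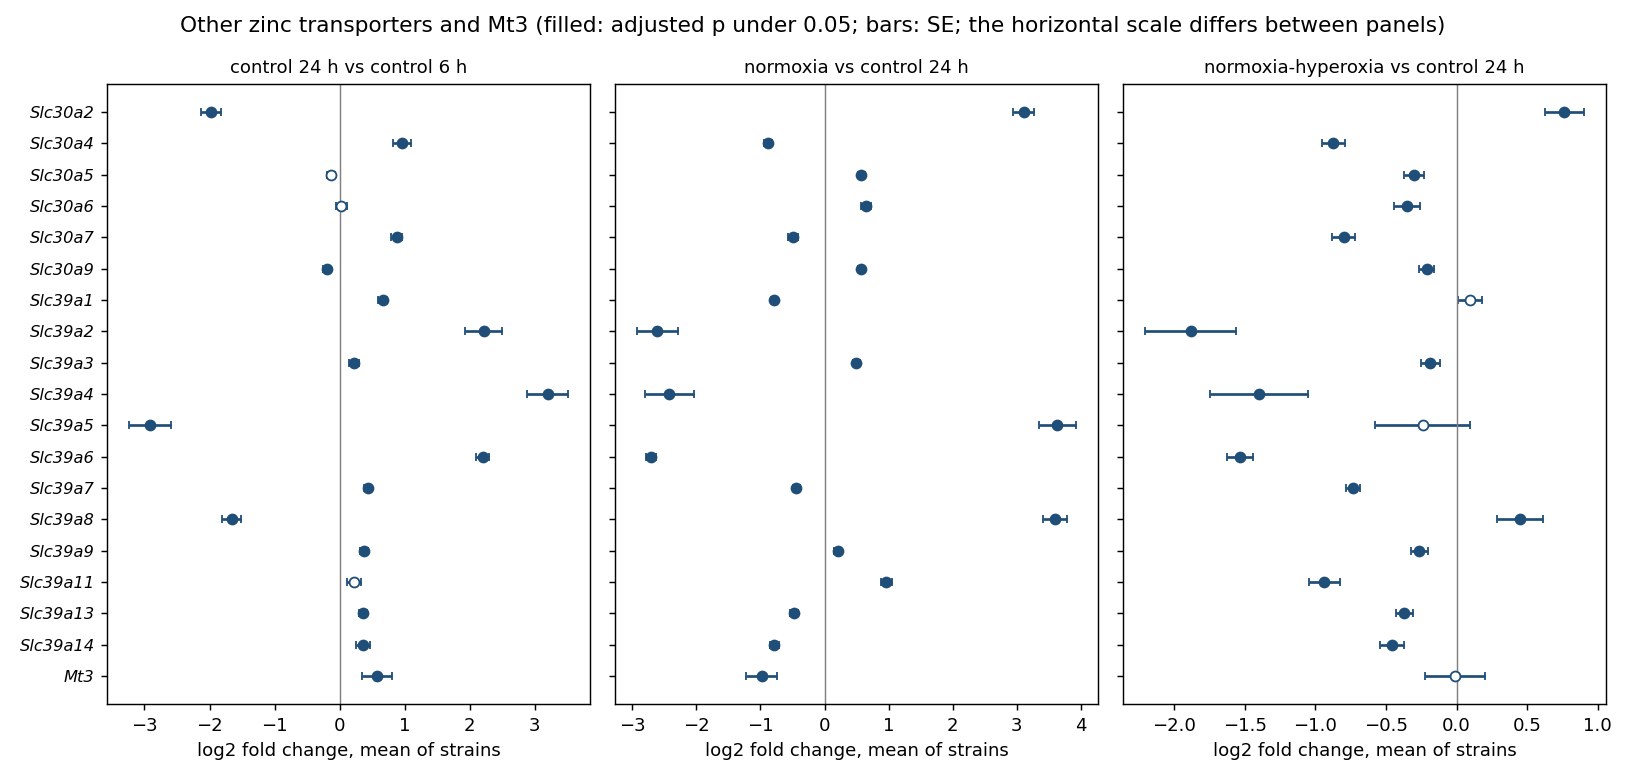
Log2 fold change, averaged over both strains, ± SE (horizontal axis) of the other zinc transporters and Mt3 that passed the filter, for 24 h against 6 h controls and for the oxygen conditions against 24 h controls. Filled points passed an adjusted p of 0.05; 9 genes lay to the right and 10 to the left under normoxia, 2 and 14 passed to the right and left under normoxia-hyperoxia.

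Time in culture moved the 6 transporters named under normoxia in the opposite direction, on the mean over both strains. From 6 h to 24 h, 12 of 19 genes tested were higher and 4 lower, next to 34.7% and 37.4% of all genes tested. Among them were Slc39a2 (2.21 ± 0.29), Slc39a6 (2.2 ± 0.11) and Slc30a4 (0.96 ± 0.14) as higher and Slc39a5 (-2.91 ± 0.32), Slc30a2 (-1.98 ± 0.16) and Slc39a8 (-1.66 ± 0.14) as lower. Both comparisons contain the 24 h controls. Against the 6 h control, normoxia had 10 of 18 higher and 4 lower (32.9% each way over all genes tested), with Slc39a8 at 1.89 ± 0.15, Slc39a11 at 1.14 ± 0.08 and Slc30a2 at 1.09 ± 0.16, and Slc39a6 at -0.56 ± 0.11.

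Normoxia-hyperoxia had 2 of 19 higher and 14 lower than the 24 h control, next to 34.1% each way over all genes tested, at a median of -0.35 against 0.00 for all genes. The higher genes were Slc30a2 (0.76 ± 0.14) and Slc39a8 (0.45 ± 0.17). For Slc39a8 the estimate was 0.96 ± 0.24 in C57BL/6J (adjusted p = 0.0034, edgeR) and -0.06 ± 0.23 in DBA/2J (adjusted p = 0.83, edgeR), and the difference between strains did not pass (-1.03 ± 0.33, adjusted p = 0.14, edgeR). The lower genes included Slc39a2 (-1.88 ± 0.32), Slc39a6 (-1.53 ± 0.09) and Slc39a11 (-0.94 ± 0.11). Against normoxia, where 37% of all genes tested were higher and 36.5% lower, 4 of 19 were higher, led by Slc39a6 (1.19 ± 0.09) and Slc39a1 (0.90 ± 0.09), and 11 lower, led by Slc39a5 (-3.87 ± 0.14) and Slc39a8 (-3.12 ± 0.17).

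Tunicamycin for 24 h raised 2 of 20 zinc genes (1.38% of all genes tested were called), Slc39a14 (0.28 ± 0.06, adjusted p = 0.035, edgeR) and Slc39a7 (0.26 ± 0.05, adjusted p = 0.020, edgeR), which encodes an importer of the endoplasmic reticulum and Golgi. The count fell to 0 or 1 on leaving out any of 9 of the 12 libraries, and to 1 with total counts only or a single fit of all libraries. No zinc gene passed after the other drug treatments (0 of 18 tested for tunicamycin and for cyclosporin A at 6 h, 0 of 19 for cyclosporin A at 24 h). Between strains 12 of 20 were higher in DBA/2J and 0 lower (33% and 31% of all genes tested), led by Slc30a2 (1.79 ± 0.11), Slc39a5 (1.54 ± 0.14) and Slc39a2 (1.23 ± 0.18). Slc39a2 was higher in DBA/2J in 7 of 8 conditions and lower under normoxia (-2.28 ± 0.57, adjusted p = 0.0014, edgeR), without overlap of the libraries. The brain-enriched metallothionein gene Mt3 stayed at group means of 0.79 to 3.25 normalised CPM, and Mt4, an epithelial form, at or near 0.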

How the data were processed

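The members and the gene lists were chosen with earlier results of these data known. The authors deposited a table of raw, whole-number counts per Ensembl gene for 48 libraries, without normalization. Per the labels, RNA was extracted with a Qiagen kit and made into stranded mRNA libraries, and the submitters' processing notes name bcl2fastq 2.20.0, FastQC 0.11.8, STAR 2.7.9a, featureCounts 1.5.1 and GRCm38. The strand setting and annotation release are not given in the sources used here. Symbols matched 55141 of 55487 IDs, and coordinates were taken from GENCODE M21 (GRCm38).

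Each comparison was fitted on its 12 libraries with edgeR 4.0.16 (R 4.3.3, limma 3.58.1), using filterByExpr by group, TMM and the robust quasi-likelihood test of the mean over both strains, of each strain and of the difference between strains. The strain comparison used all 48 libraries. Calls had a Benjamini-Hochberg adjusted p under 0.05 over all genes tested. Single-library values are CPM scaled by TMM over 48 libraries. The named genes were the 5 members, up to 3 genes each way per comparison from the zinc list and from a list of 8 glucocorticoid-responsive genes, by size of change among called genes with a mean log2 CPM of at least 1, and the 3 genes most correlated with each member. The zinc genes Slc39a1, Slc30a4, Slc39a11 and Slc39a14 fell under the same rule, and Mt3 and Mt4 were named for their family. The scripts were tested on simulated data. Alternatives were RLE factors, total counts only, no mitochondrial genes, no filter, DESeq2 1.42.0, a joint model over every library, a block for the replicate number and leaving out 1 library at a time.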

Additional observations from a re-analysis of the deposited data

Results flagged for a closer look

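For 3 results the test of the difference between the strains' effects passed. Among all genes tested, 17% passed it for normoxia against the 24 h control and 18.2% for normoxia-hyperoxia against normoxia. The change of Slc39a10 from the 24 h control to normoxia differed by 0.75 on the log2 scale (DBA/2J minus C57BL/6J; -0.43 in C57BL/6J and 0.32 in DBA/2J). The same change of Slc30a1 differed by 0.38, and its difference between normoxia-hyperoxia and normoxia differed by -0.44. The Slc39a10 difference passed in all 19 alternative settings, and the Slc30a1 differences failed in 16 and 17 of 19. Against the 6 h control, neither normoxia difference passed, at 0.27 for Slc39a10 (adjusted p = 0.32, edgeR) and 0.15 for Slc30a1 (adjusted p = 0.70, edgeR).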

How the results depend on the processing

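Of 24 called log2 changes of members averaged over strains or conditions, 22 kept direction and call in every alternative run; the exceptions were Mtf1 and Slc39a10 between strains. Of 26 uncalled ones, 18 changed sign somewhere and 4 were called somewhere. No label says that a replicate number marks a shared source. Same-numbered libraries correlated over 0.1 in all 6 pairs in 0 of 9 comparisons and in all 3 pairs of a strain in 5 of 18. A library correlated best with its own number in 72 of 108 cases. With 3 candidates for each library, that is more than random matching would give. The number of such cases varied, from 0 in C57BL/6J over time in culture to 6 in DBA/2J for tunicamycin at 6 h. The values lean towards a pairing in some comparisons and leave it undecided. The effect of depth on the interactions was not tested.

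With total counts only, the log2 changes reversed to -0.24 (Slc30a1, normoxia), -0.15 and -0.041 (Mt1 and Mt2, normoxia-hyperoxia), -0.0044 and -0.00069 (Mtf1 and Slc39a10, cyclosporin A 6 h) and 0.011 and 0.0086 (Mt2 and Mtf1, cyclosporin A 24 h). Members called became 5 for normoxia and 3 for strain, the interaction between the oxygen conditions lost its member (0), and higher calls went from 48.1% to 60.4% (time), 51.6% to 41.5% (normoxia), 50% to 39% (normoxia-hyperoxia) and 51.6% to 65.4% (strain). Slc30a1 under normoxia was -0.0094 without mitochondrial genes and -0.0065 in a single fit, and Slc39a10 over time was -0.0060 without the filter. The interaction between the oxygen conditions also had 0 members with RLE factors, without mitochondrial genes, with DESeq2, in a single fit and with the replicate block. The normoxia interaction had 1 member in a single fit.

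The replicate block gave 71 genes for the time interaction, 618 genes and 1 member (Slc39a10) for the normoxia-hyperoxia interaction, and -0.0085 for Mt1's interaction between the oxygen conditions. Calls without the filter, and with DESeq2, were 817 and 360 for the time interaction (117 in the design used), 395 and 527 for tunicamycin 24 h (233), 4 and 51 for cyclosporin A 6 h (0), 3 and 22 for cyclosporin A 24 h (0; 3 in a single fit), and 1156 and 686 for the normoxia-hyperoxia interaction (247; 409 in a single fit). Without the filter 3 members were called for strain.

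Leaving out each library gave 0 to 1 genes for cyclosporin A 6 h, 78 to 344 for tunicamycin 24 h, and 1860 to 2700, 103 to 524 and 46 to 226 for the interactions of normoxia, normoxia-hyperoxia and time. Members called were 1 to 3 for the normoxia interaction and 0 to 1 for that between the oxygen conditions. Ranges that crossed 0 on leaving out each library were, for Mt1, -0.22 to 0.058 (normoxia interaction), -0.077 to 0.18 (interaction between the oxygen conditions), -0.044 to 0.093 (normoxia-hyperoxia), -0.049 to 0.081 (tunicamycin 6 h), -0.015 to 0.14 (cyclosporin A 6 h) and -0.079 to 0.081 (cyclosporin A 24 h). For Mt2 they were -0.020 to 0.24 (tunicamycin 6 h), -0.0012 to 0.25 (cyclosporin A 6 h) and -0.12 to 0.038 (cyclosporin A 24 h). For Mtf1 they were -0.026 to 0.17 (normoxia interaction), -0.031 to 0.048 and -0.069 to 0.014 (tunicamycin 6 h and 24 h), and -0.018 to 0.065 and -0.034 to 0.026 (cyclosporin A 6 h and 24 h). Slc30a1 had -0.11 to 0.015 (tunicamycin 6 h) and -0.029 to 0.051 (cyclosporin A 24 h). Slc39a10 had -0.031 to 0.057 (time), -0.0061 to 0.052 (cyclosporin A 6 h) and -0.078 to 0.025 (cyclosporin A 24 h). The cause of these changes was not tested.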

Other observations

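Glucocorticoids are known to induce metallothionein genes, and a list of 8 other genes widely known to respond to these hormones was followed. No test of the list as a whole was made. Under normoxia 3 of 8 were higher and 5 lower than in the 24 h control, where 42.4% of all genes tested were higher and 39.7% lower, with a median log2 change of -0.69 against 0.05 for all genes. Lower were Ddit4 (-3.35 ± 0.16), a regulator of growth signalling, the clock gene Per1 (-3.09 ± 0.13) and Zbtb16 (-2.08 ± 0.23). Higher were Tsc22d3 (1.3 ± 0.07), Fkbp5 (0.65 ± 0.07) and Klf9 (0.30 ± 0.07), which encode an anti-inflammatory protein, a chaperone of the glucocorticoid receptor and a transcription factor. Fkbp5 was at 1.08 ± 0.11 in DBA/2J (adjusted p = 1.5e-07, edgeR) and 0.23 ± 0.11 in C57BL/6J (adjusted p = 0.062, edgeR), a difference of 0.85 ± 0.15 (adjusted p = 0.0016, edgeR). Klf9 passed in DBA/2J (0.50 ± 0.10, adjusted p = 0.00023, edgeR) and not in C57BL/6J (0.09 ± 0.10, adjusted p = 0.40, edgeR), and the difference did not pass (0.41 ± 0.14, adjusted p = 0.051, edgeR). The fall of Zbtb16 was -2.90 in C57BL/6J and -1.26 in DBA/2J, a difference of 1.64 (adjusted p = 0.032, edgeR).

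From 6 h to 24 h in the controls (34.7% of all genes tested higher, 37.4% lower), 1 of 8 was higher (Ddit4, 0.36 ± 0.10) and 5 were lower, led by Errfi1 (-1.04 ± 0.10), Sgk1 (-1.02 ± 0.11) and Tsc22d3 (-0.94 ± 0.07), while Mt1 and Mt2 rose. Against the 6 h control (32.9% each way over all genes), normoxia had 1 higher (Tsc22d3, 0.32 ± 0.07) and 6 lower, led by Per1 (-3.43 ± 0.13), Ddit4 (-3.03 ± 0.17) and Zbtb16 (-2.38 ± 0.19). Normoxia-hyperoxia (34.1% each way) had 4 higher than the 24 h control, led by Sgk1 (1.83 ± 0.10), Errfi1 (1.24 ± 0.09) and Tsc22d3 (0.96 ± 0.09), and 2 lower, Zbtb16 (-0.92 ± 0.29) and Ddit4 (-0.72 ± 0.11). Against normoxia (37% higher, 36.5% lower) it had 6 higher, led by Per1 (2.74 ± 0.17), Ddit4 (2.64 ± 0.17) and Errfi1 (2.34 ± 0.11), and 2 lower, Fkbp5 (-0.74 ± 0.08; -1.28 in DBA/2J and -0.20 in C57BL/6J) and Tsc22d3 (-0.33 ± 0.08). Between strains (33% higher, 31% lower) DBA/2J had 1 higher (Fkbp5, 0.41 ± 0.03) and 5 lower, led by Per1 (-0.57 ± 0.10), Sgk1 (-0.52 ± 0.05) and Ddit4 (-0.40 ± 0.08). No gene of the list passed after either drug in edgeR's test (0 of 8 in each of 4 comparisons).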
